A study of Homo sapiens with 24 samples.

Results

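The genes described here are 10 imprinted genes, H19, IGF2, MEG3, DLK1, PEG3, PEG10, MEST, NDN, GRB10 and SNRPN. They were chosen by their symbols among the 57820 genes of the count tables, and all 10 were found. An imprinted gene is expressed mainly from the allele inherited from one parent. The choice rests on DNA methylation that is laid down in the egg or sperm and kept through cell division, and in tumour cells these marks are often altered. Many imprinted genes act on fetal growth, and neighbours such as IGF2 and H19 are usually active on opposite parental chromosomes. The counts do not separate the parental alleles, so imprinting itself was not measured.

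The 24 RNA-seq libraries fall into 8 groups of 3 biological replicates. WT and ID3-KO AID-DIvA U2OS cells were untreated, or took mocetinostat (an inhibitor of class I histone deacetylases) over 24 h followed by 24 h in drug-free medium. WT and ID3-KO cells labelled U2OS were untreated, or were harvested straight after 24 h of mocetinostat, a stage read from the methods. AID-DIvA cells are U2OS osteosarcoma cells with an inducible AsiSI restriction enzyme, and ID3 is an inhibitor of E proteins. All groups are one tumour line in culture, and no dose is given for this experiment. Whether the KO cells are a single clone is not given in the sources used here. The stage of collection and the cell line label coincide. They cannot be told apart from each other or from a batch between the AID-DIvA and U2OS sets. The library names of the U2OS samples also carry DivA. In the AID-DIvA set, titles and the labelled treatment disagree. Groups follow the titles. Under the labelled treatment every AID-DIvA treatment difference and interaction below would change its sign, the untreated and treated AID-DIvA genotype comparisons would change places, and the comparisons between AID-DIvA and U2OS cells would have other values.

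Total counts ran from 37878751 to 76906266 per library. ID3 was still counted in KO cells, at 34.8 ± 3.61 CPM (SD, n = 3) against 50.4 ± 2.20 in untreated AID-DIvA WT cells, and at 30.6 ± 1.53 against 62.4 ± 15.9 in untreated U2OS cells. CPM (counts scaled to a common library size with TMM factors over all 24 libraries) compare one gene between libraries. Of the markers of the osteoblast lineage, COL1A1 (1074 to 2373 CPM over the group means) and SPARC (918 to 1510) were abundant, and RUNX2 (12.5 to 43.1), SPP1 (16.4 to 58.6) and ALPL (0.681 to 6.03) were detected, while SP7 (at most 0.0513), IBSP (0.287), BGLAP (0.558) and COL1A2 (1.24) were at or near 0. The 5 leukocyte markers summed to at most 0.796 CPM. Of the 5 epithelial markers, KRT8 reached 252 CPM, KRT18 170 and EPCAM 10.1, whereas CDH1 stayed at or below 1.78 and KRT19 at or below 0.174. Replicate 1 of the untreated WT U2OS cells stood apart from replicates 2 and 3 over the counted genes as a whole, not only in genes below. The mean chi-square per gene against counting error was 103 and 91.1 for it against replicates 2 and 3. It was 4.32 between replicates 2 and 3 and at most 27.3 for replicate pairs of the other groups. Most test results that replicate 1 moves are also given without it, a choice made after seeing the data. Group means, SDs and ranges keep it, that of ID3 above included.

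Promoters from RefSeq (GRCh38.p14, 250 bases before to 50 after a start) were at hand for 6 of the 10 genes, and IGF2, DLK1, PEG3 and PEG10 had no entry. Those of H19, MEG3, MEST and NDN are shown as a selection, and for GRB10 and SNRPN only counts of letters are given. H19 and MEG3 rose before recovery, as GRB10 did, MEST was close to its detection limit and NDN was the steadiest. Capitals mark TGCCGC and its reverse complement GCGGCA, the core of the motif read by the imprint-keeping factor ZFP57, searched on both strands. For MEG3 and MEST, which have several starts, the start with the most CG pairs was taken. They lie at chr11:2001217-2001516 (H19, minus strand), chr14:100825858-100826157 (MEG3, plus), chr7:130491835-130492134 (MEST, plus) and chr15:23687256-23687555 (NDN, minus).
H19: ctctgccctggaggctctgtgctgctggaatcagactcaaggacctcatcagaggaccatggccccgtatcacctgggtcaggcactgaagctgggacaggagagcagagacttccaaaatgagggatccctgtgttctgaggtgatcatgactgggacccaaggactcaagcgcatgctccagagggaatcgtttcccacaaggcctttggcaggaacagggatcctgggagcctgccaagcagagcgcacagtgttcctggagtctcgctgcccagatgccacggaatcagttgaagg
MEG3: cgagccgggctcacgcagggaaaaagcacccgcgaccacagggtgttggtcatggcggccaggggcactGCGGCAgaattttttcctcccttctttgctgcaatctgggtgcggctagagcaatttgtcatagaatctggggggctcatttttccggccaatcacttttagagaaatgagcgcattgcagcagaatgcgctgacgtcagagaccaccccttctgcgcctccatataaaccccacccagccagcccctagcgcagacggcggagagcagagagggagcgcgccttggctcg
MEST: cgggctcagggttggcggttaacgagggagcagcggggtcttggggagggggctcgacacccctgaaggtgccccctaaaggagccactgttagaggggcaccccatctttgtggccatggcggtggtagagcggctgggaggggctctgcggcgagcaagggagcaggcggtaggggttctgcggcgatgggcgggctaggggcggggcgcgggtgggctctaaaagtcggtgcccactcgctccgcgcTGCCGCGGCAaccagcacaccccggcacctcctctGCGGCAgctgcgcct
NDN: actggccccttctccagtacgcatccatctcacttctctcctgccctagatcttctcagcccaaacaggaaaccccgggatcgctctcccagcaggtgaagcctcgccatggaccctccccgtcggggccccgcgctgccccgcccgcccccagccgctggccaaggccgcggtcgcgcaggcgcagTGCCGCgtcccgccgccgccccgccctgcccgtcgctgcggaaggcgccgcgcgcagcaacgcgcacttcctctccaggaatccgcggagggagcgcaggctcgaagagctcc
The number of CG pairs was 6 in the H19 window, 19 in that of MEG3, 25 in that of MEST and 35 in that of NDN, against a median of 14 over 35116 promoters. The motif letters occurred 0 times in H19, once in MEG3 and NDN and 3 times in MEST, of which 2 overlap. The window of GRB10 held 49 CG pairs and 0 motif matches, and that of SNRPN 18 and 2. Those genes have 5 and 4 starts, and a single window of each was counted. A window picked for its CG pairs, as for MEG3 and MEST, can lean high against the median of all promoters. The same may hold for its motif letters. The motif letters were present in 16.7% of all promoters. These are matches of letters only, and binding or methylation was not measured here.

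Read per kilobase of exonic length (RPKM), the only scale used here between genes, NDN was the highest, with group means from 31.1 to 42.6. GRB10 (6.20 to 13.4), PEG3 (7.02 to 12.8) and IGF2 (4.48 to 14.9) came next, and their ranges overlapped. PEG10 lay between 1.56 and 5.62, H19 between 1.46 and 3.73 and SNRPN between 0.181 and 0.345. MEST stayed at or below 0.0298, MEG3 at or below 0.0150 and DLK1 at or below 0.00294. In all 4 treatment comparisons, 7 of the 10 genes passed the filter on low counts, and MEG3 passed it in U2OS KO cells as well. The count and strand records bear on which values can be used. For 9 of the 10 genes, at least 91.2% of the strand-assigned counts lay on the gene's own strand, but for MEST it was 15.1%.

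**Figure D1:**
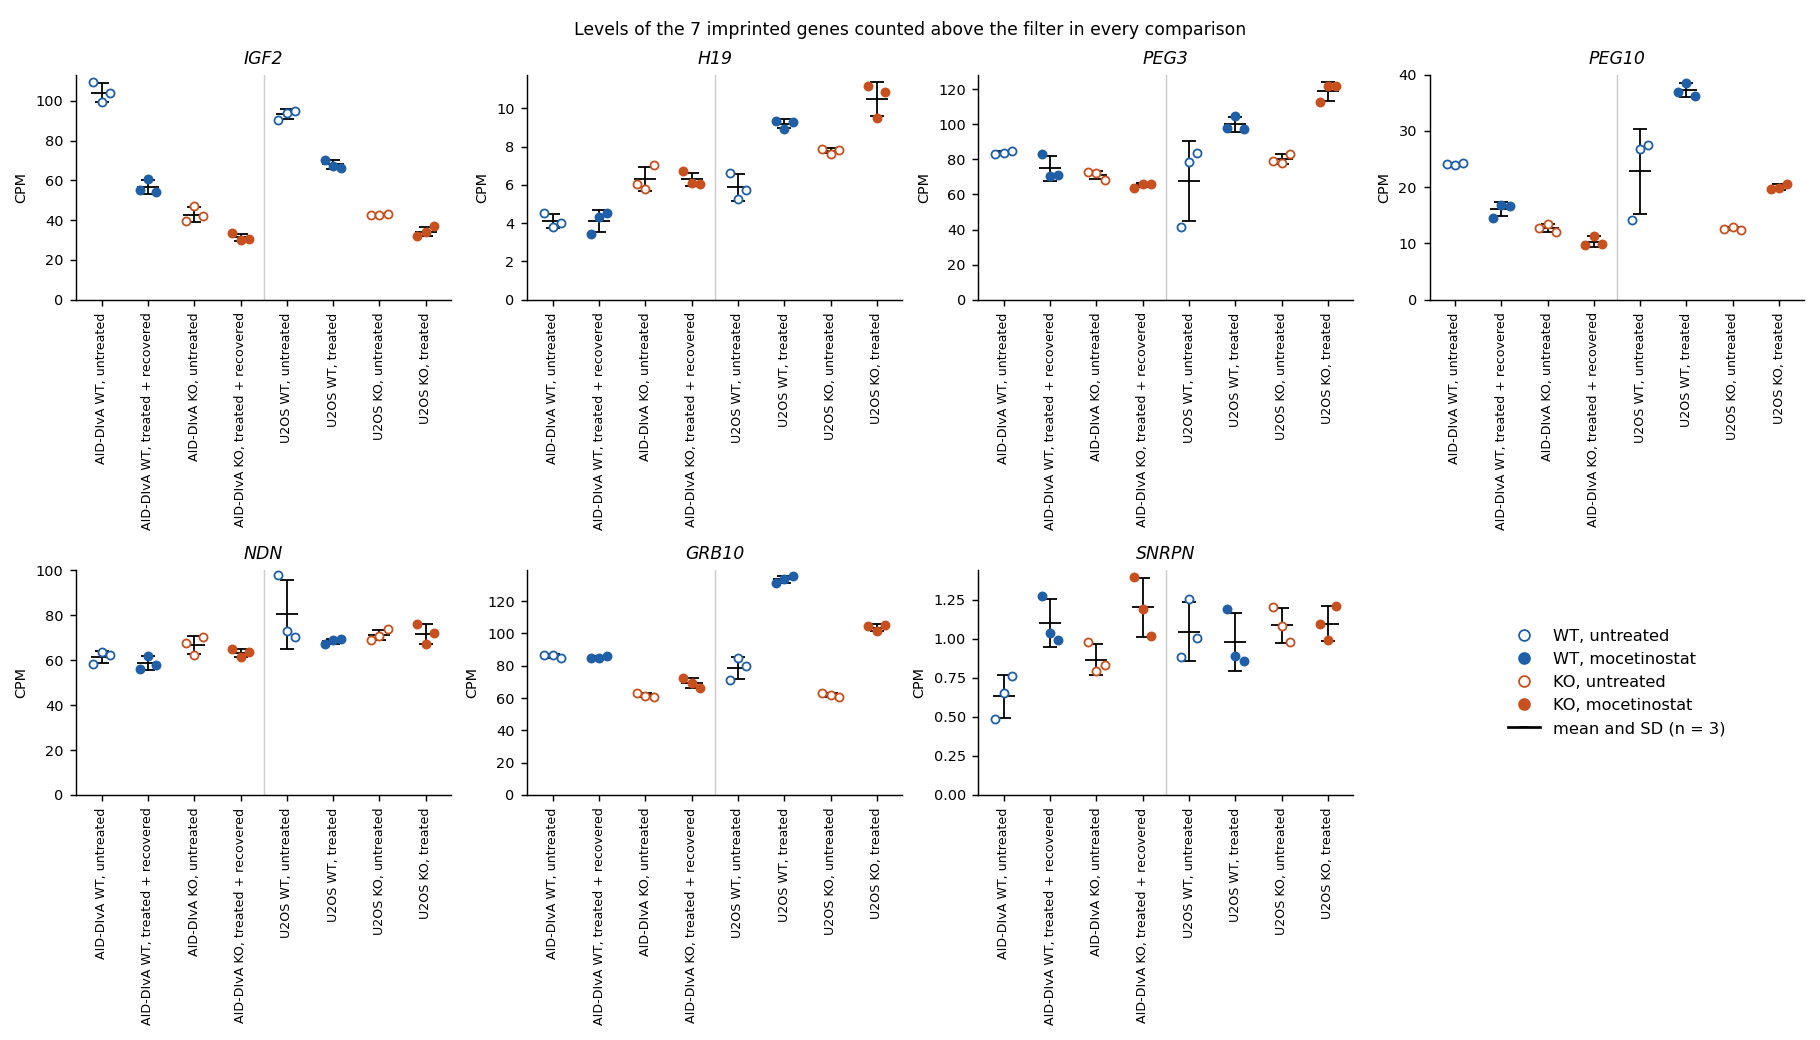
Level of 7 imprinted genes in the 24 libraries, in CPM on a linear axis from 0, by group. Points are libraries, WT in blue and KO in orange, open when untreated and filled after mocetinostat, with the mean and SD of 3 replicates as bars. IGF2 was lower in KO than in WT cells in each pair of groups, while NDN stayed between 58.7 and 80.4 CPM on average.

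IGF2, a growth factor of fetal tissues, was the member that differed most between the genotypes (ENSG00000167244.13, hg19 chromosome 11, 2150342 to 2170833, minus strand). In untreated AID-DIvA cells IGF2 stood at 109, 99.6 and 104 CPM in the WT libraries and at 39.6, 47.0 and 42.0 in the KO libraries. In untreated U2OS cells IGF2 stood at 90.4, 94.1 and 95.2 CPM in WT and at 42.6, 42.6 and 43.2 in KO. All KO libraries therefore lay under all WT libraries of their line, with a wide gap. IGF2 shares its strand and locus with INS-IGF2, which had 0 counts. On the opposite strand it overlaps IGF2-AS, which had 252 counts over the 24 libraries. Of the strand-assigned counts of IGF2, between 89.4% (treated KO U2OS) and 92.3% (untreated WT U2OS) lay on its own strand by group. After treatment and recovery IGF2 was at 55.3, 60.9 and 54.2 CPM in WT and at 33.5, 29.8 and 30.6 in KO AID-DIvA cells. Before recovery it was at 70.4, 67.5 and 66.4 CPM in WT and at 32.1, 33.9 and 36.8 in KO U2OS cells. Within each genotype and line the treated libraries lay below the untreated ones without overlap. In the order of the 8 groups the 4 KO groups came lowest and the 4 WT groups highest, and the neighbours that overlapped were all KO groups.

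H19 is a long noncoding RNA transcribed downstream of IGF2 (ENSG00000130600.11, chromosome 11, 2016406 to 2022700, minus strand), and its order ran largely the other way. In untreated AID-DIvA cells H19 stood at 4.51, 3.78 and 4.003 CPM in WT and at 6.07, 5.81 and 7.03 in KO, and after recovery at 3.44, 4.33 and 4.51 and at 6.70, 6.12 and 6.05. The KO libraries were above the WT libraries at both times, and treated and untreated libraries overlapped in each genotype. In U2OS cells H19 stood at 6.63, 5.26 and 5.73 CPM in untreated WT, 9.34, 8.91 and 9.30 in treated WT, 7.88, 7.63 and 7.83 in untreated KO and 11.2, 9.50 and 10.8 in treated KO cells. Treated and untreated U2OS libraries did not overlap in either genotype. The highest level of H19, in treated KO U2OS cells, was 2.57 times the lowest, in treated and recovered WT AID-DIvA cells. The ratio of IGF2 to H19, per length within a library, was 10.3 ± 0.445 (SD, n = 3) in untreated and 5.66 ± 0.814 in recovered WT AID-DIvA cells, and 2.77 ± 0.439 and 2.01 ± 0.0368 in the KO cells. In U2OS cells it was 6.47 ± 0.878 in untreated and 2.99 ± 0.0973 in treated WT cells, and 2.22 ± 0.0361 and 1.32 ± 0.145 in KO cells. These ratios are descriptions without a test.

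**Figure D2:**
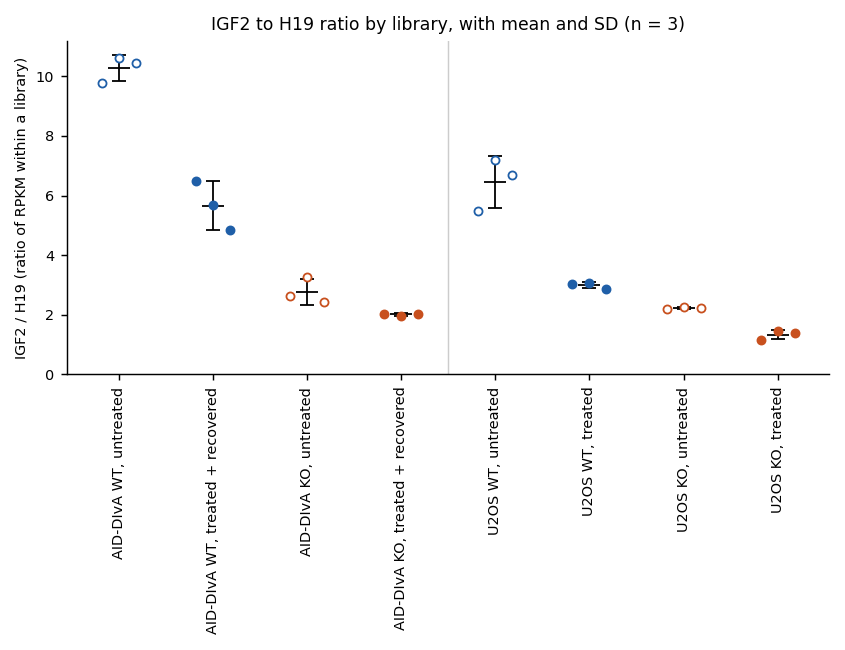
Ratio of the IGF2 to the H19 level, both per kilobase, in each of the 24 libraries, by group, with the mean and SD of 3 replicates. The untreated WT AID-DIvA libraries were the highest, at 10.3 on average, and the treated KO U2OS libraries the lowest, at 1.32.

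PEG3 encodes a zinc finger protein and names an imprinted domain (ENSG00000198300.8, chromosome 19, 57321445 to 57352096). In AID-DIvA cells PEG3 ran from 64.0 to 84.8 CPM over the 12 libraries, and in treated U2OS cells it reached 97.4 to 105 in WT and 113 to 122 in KO cells. In untreated U2OS cells it stood at 41.3, 78.2 and 83.6 CPM in WT and at 78.9, 78.0 and 83.2 in KO cells, so replicate 1 of WT alone was low. PEG10 derives from a retrotransposon and is needed for the placenta (ENSG00000242265.1, chromosome 7, 94285637 to 94299007). PEG10 stood at 24.1, 23.9 and 24.3 CPM in untreated WT and at 12.8, 13.5 and 12.1 in untreated KO AID-DIvA cells, and at 14.6, 16.9 and 16.7 and at 9.64, 11.4 and 9.98 after recovery. In U2OS cells it stood at 14.2, 26.8 and 27.5 CPM in untreated WT, 36.99, 38.6 and 36.1 in treated WT, 12.6, 12.9 and 12.4 in untreated KO and 19.6, 19.9 and 20.5 in treated KO cells. Treated U2OS cells were above untreated ones and recovered AID-DIvA cells below theirs, without overlap in any of the 4 pairs of groups. PEG10 had the widest range of group means of the 7 genes, 3.60-fold.

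GRB10, an adaptor that dampens insulin and IGF receptor signalling (ENSG00000106070.13, chromosome 7, 50657760 to 50861159), was near constant in WT AID-DIvA cells, at 86.8, 86.9 and 84.6 CPM untreated and 85.1, 84.9 and 86.3 after recovery. In KO AID-DIvA cells it stood at 62.9, 61.5 and 60.4 CPM untreated and at 72.4, 69.2 and 66.1 after recovery. In U2OS cells GRB10 stood at 71.2, 85.0 and 79.8 CPM in untreated WT and at 131, 134 and 136 in treated WT, and at 63.1, 61.6 and 60.9 and 104, 101 and 105 in KO cells. The treated U2OS groups were the highest of the 8, and all their libraries lay above all others. NDN (necdin, a growth suppressor of neurons, ENSG00000182636.4, chromosome 15, 23930565 to 23932450) varied least, 1.37-fold between the lowest and the highest group mean. Its libraries ran from 56.1 to 76.0 CPM apart from replicate 1 of untreated WT U2OS cells, at 98.0, and each group overlapped its neighbour in the order. SNRPN encodes a splicing protein from the same imprinted domain as NDN (ENSG00000128739.16, chromosome 15, 25068794 to 25223870). It stood at 0.485, 0.653 and 0.759 CPM in untreated WT AID-DIvA cells, below every other library in the series, and the other 7 groups had means from 0.868 to 1.20. SNRPN shares its strand and part of its locus with SNURF and SNHG14, so its counts are uncertain.

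The first question was how these genes differed after mocetinostat and recovery. In WT AID-DIvA cells IGF2, PEG10 and PEG3 fell and SNRPN rose, so 1 of 7 tested members was called higher and 3 lower at an adjusted p below 0.05, where 23.9% and 23.0% of all 20289 genes tested were called. IGF2 fell by 0.87 on the log2 scale (SE 0.06, adjusted p = 4.5e-08, edgeR quasi-likelihood test with Benjamini-Hochberg adjustment), PEG10 by 0.58 (SE 0.07, adjusted p = 8.9e-06) and PEG3 by 0.15 (SE 0.06, adjusted p = 0.049). SNRPN rose by 0.79 (SE 0.20, adjusted p = 0.005). H19, NDN and GRB10 had differences of 0.01, -0.06 and -0.00 and did not pass. The call of PEG3 was lost with DESeq2, with its size factors, with the replicate block and with all 4 groups in one fit. In these bulk samples, fewer cells expressing a gene and less RNA per cell cannot be told apart.

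In KO AID-DIvA cells 2 of 7 members were called higher, against 20.2% of the 20362 genes tested, and 2 lower, against 19.9%. IGF2 fell by 0.46 (SE 0.08, adjusted p = 0.0016) and PEG10 by 0.30 (SE 0.09, adjusted p = 0.028), a call lost without replicate 3 of the recovered or replicate 1 or 2 of the untreated cells. GRB10 rose by 0.17 (SE 0.06, adjusted p = 0.045) and SNRPN by 0.47 (SE 0.16, adjusted p = 0.047), and neither was called with DESeq2, without the filter or with the replicate block. H19, PEG3 and NDN differed by -0.00, -0.13 and -0.08 and did not pass. Shares of this kind in 7 genes lie near those of all genes, so the counts alone set nothing apart.

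Before recovery, in U2OS cells, GRB10, PEG10 and H19 rose in both genotypes while IGF2 fell in both. Among WT cells 3 of 7 members were called higher, against 26.0% of the 21797 genes tested, and 1 lower, against 22.9%. GRB10 rose by 0.77 on the log2 scale (SE 0.08, adjusted p = 0.00017), PEG10 by 0.72 (SE 0.22, adjusted p = 0.03) and H19 by 0.65 (SE 0.11, adjusted p = 0.0019). IGF2 fell by 0.44 (SE 0.07, adjusted p = 0.0011). PEG3 differed by 0.57 (SE 0.23, adjusted p = 0.075), NDN by -0.22 and SNRPN by -0.09, none of which passed. DESeq2 called 6 members, PEG3 and MEG3 in addition, with no share of all genes beside that count. MEG3 had 1 untreated count and did not pass the edgeR filter here, so its call rests on the treated libraries. When replicate 1 of untreated WT was left out, the values were 0.70 for GRB10, 0.46 for PEG10, 0.76 for H19, 0.31 for PEG3 and -0.47 for IGF2, and all 5 passed, with 33.9% of all genes called higher and 32.5% lower. NDN then differed by -0.06 and SNRPN by -0.21, and neither passed. The call of PEG10 was lost without any 1 of the 3 treated libraries.

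In KO U2OS cells 5 of 8 tested members were called higher, against 35.8% of the 21176 genes tested, and 1 lower, against 34.0%. GRB10 rose by 0.75 (SE 0.04, adjusted p = 5e-13), PEG10 by 0.67 (SE 0.06, adjusted p = 7.7e-10), PEG3 by 0.58 (SE 0.05, adjusted p = 1.6e-10) and H19 by 0.44 (SE 0.08, adjusted p = 2.4e-05). IGF2 fell by 0.31 (SE 0.05, adjusted p = 1.7e-05). The fifth was MEG3, which passed the filter only through its treated libraries and so had to differ. NDN and SNRPN differed by 0.02 and 0.03 and did not pass. These calls, apart from MEG3, are of 0.31 to 0.75 in size, and none reached 1 on the log2 scale.

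**Figure D3:**
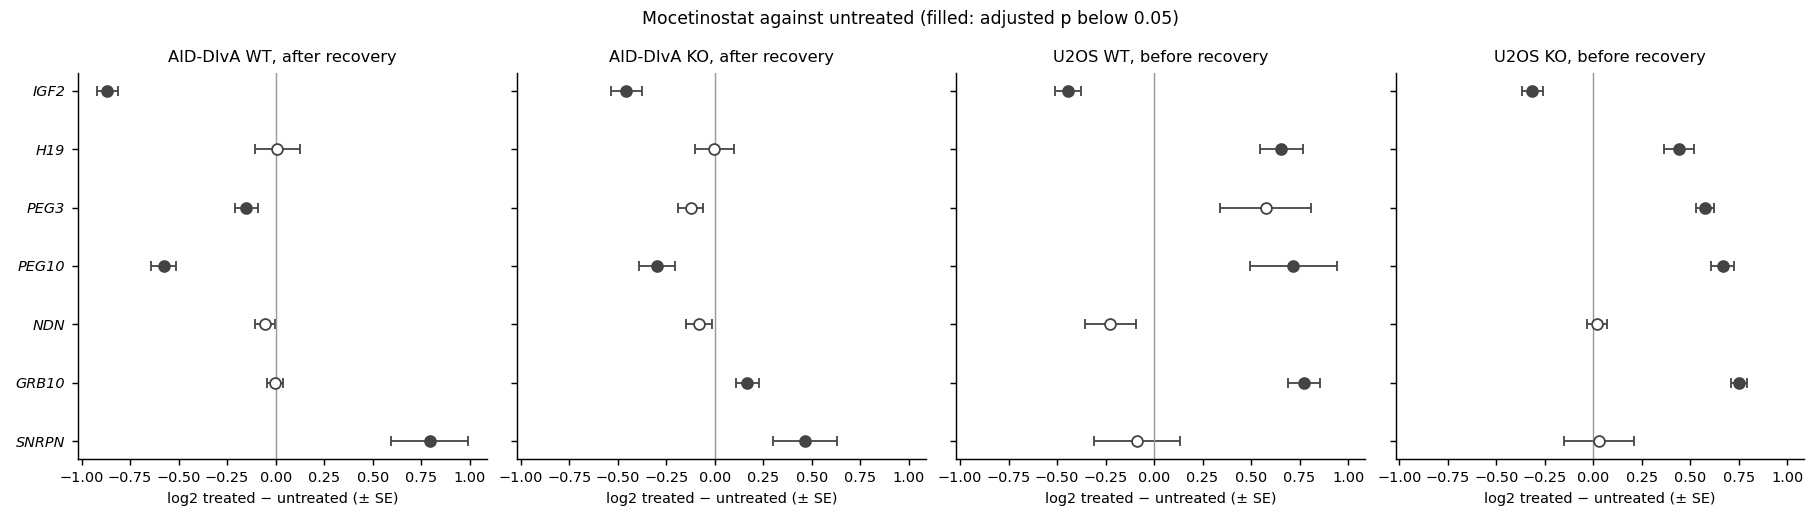
Difference between mocetinostat-treated and untreated cells for 7 imprinted genes, in log2 units with an approximate standard error derived from the edgeR F statistic, in 4 comparisons. Filled points passed an adjusted p of 0.05. IGF2 lies left of 0 in all 4, while GRB10, PEG10 and PEG3 lie between 0.57 and 0.77 before recovery and at or below 0.17 after it.

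MEG3, a long noncoding RNA of the 14q32 domain (ENSG00000214548.10, chromosome 14, 101245747 to 101327368), was counted 0 times in all 3 untreated KO U2OS libraries and 15, 15 and 12 times in the treated ones. Against a floor of 3 counts over the group, treated KO cells were at least 12.98-fold higher. In WT U2OS cells MEG3 had 0, 1 and 0 counts untreated and 5, 6 and 18 treated, a ratio of 28.7 (exact 95% interval 4.76 to 1173, counting error only). The first is a bound and the second rests on 1 count, so their sizes are not compared. In AID-DIvA cells it had 2 counts in 1 treated WT library and 0 in the other 11. All treated U2OS libraries thus lay above all untreated ones, at levels of at most 0.275 CPM. Of the 23600 genes at 0 in all untreated KO U2OS libraries, 54, or 0.229%, had 10 or more counts in each treated library. In WT U2OS cells it was 56 of 23852, or 0.235%, and in AID-DIvA cells 0 in KO and 4 in WT. MEG3 is not among these 56, with 1 untreated count and 5 and 6 counts in treated WT libraries.

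Of the low genes of neighbouring domains, USP29, which shares its start region with PEG3, went the same way. USP29 had 0 counts in the untreated U2OS libraries and 24, 13 and 13 in treated KO and 10, 5 and 8 in treated WT cells, at least 15.4-fold and 7.59-fold higher. PWRN1, a transcript of the SNRPN domain, had 0 counts in untreated U2OS cells, 2, 5 and 0 in treated KO and 3, 4 and 5 in treated WT cells. MEG8, downstream of MEG3, had 4, 1 and 5 counts in treated KO cells but 4, 2 and 0 in untreated WT cells, and 66.7% of its counts lay on its own strand. USP29, PWRN1 and MEG8 were picked from the list after their values were seen. DLK1, a NOTCH-like ligand and the protein-coding neighbour of MEG3, had 2 counts in all 24 libraries. For DLK1 at a count of 0, the floor of 3 counts over a group corresponds to 0.0158 CPM in untreated WT U2OS cells and 0.0204 in recovered KO AID-DIvA cells.

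MEST, an enzyme of the hydrolase family expressed in mesoderm, had 141 counts in all (ENSG00000106484.10, chromosome 7, 130126012 to 130146133). Most of the counts in MEST lay on the strand of COPG2, which overlaps it in the opposite direction and had 20893 counts. On the strand of MEST itself there were 11 and 10 counts in treated WT and KO U2OS cells, and 2 and 3 in the untreated ones. In AID-DIvA cells there were 1 and 0 after recovery and 1 and 4 untreated. These are sums over 3 libraries each, and MEST was not tested because it did not pass the filter.

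**Figure D4:**
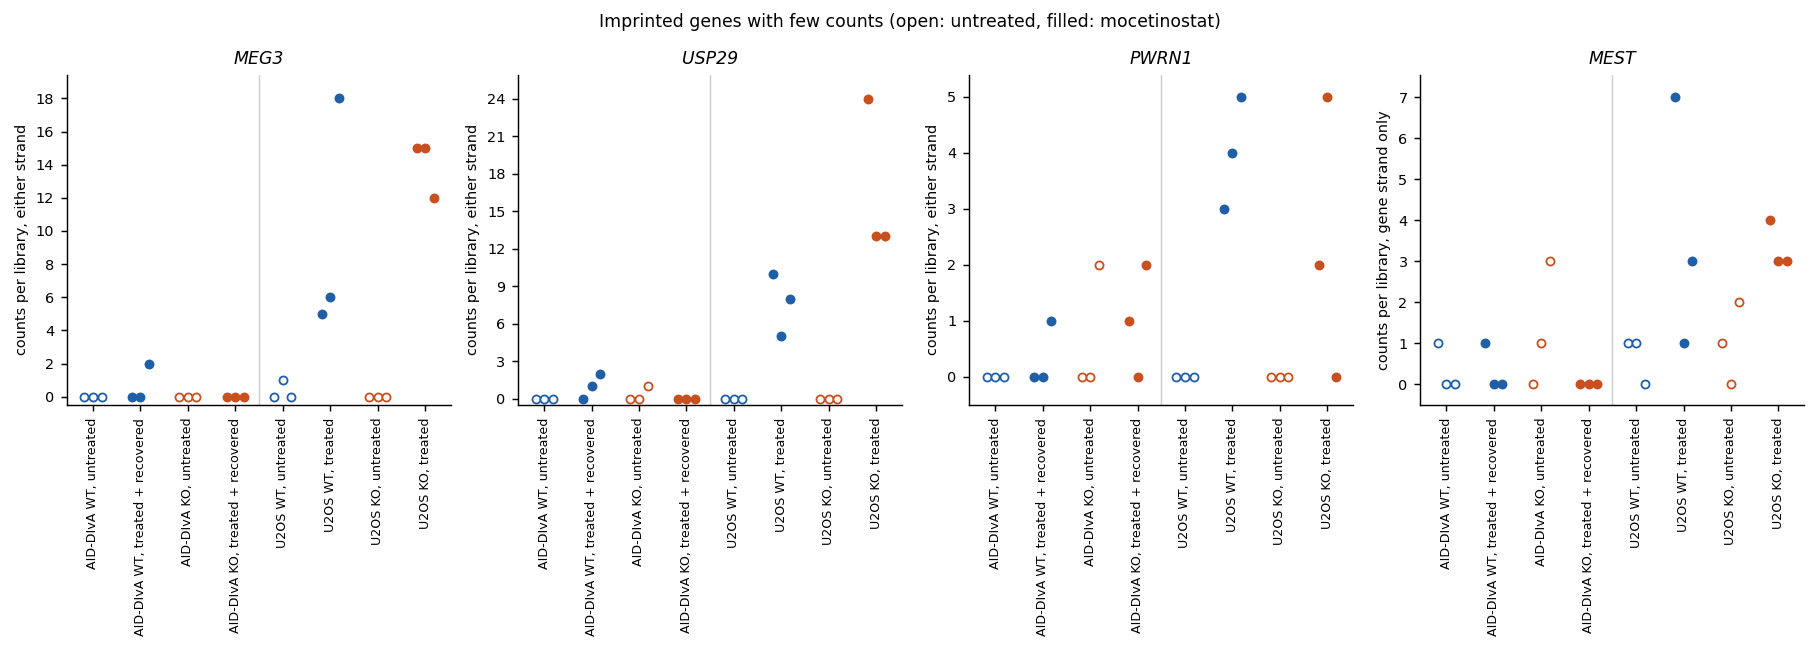
Counts per library of MEG3, USP29 and PWRN1 from either strand and of MEST from its own strand, by group, on linear axes. Open points are untreated and filled points mocetinostat-treated libraries. For MEG3 and USP29 all treated U2OS libraries have 5 or more counts and all untreated ones at most 1.

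The next question was how KO and WT cells differed at each state. In untreated AID-DIvA cells 1 of 7 members was called higher in KO cells, against 18.6% of the 20441 genes tested, and 4 lower, against 18.1%. IGF2 differed by -1.30 on the log2 scale (SE 0.06, adjusted p = 1.7e-10), PEG10 by -0.93 (SE 0.06, adjusted p = 3.8e-09), GRB10 by -0.51 (SE 0.04, adjusted p = 1.5e-07) and PEG3 by -0.26 (SE 0.04, adjusted p = 0.00018). H19 was higher by 0.60 (SE 0.10, adjusted p = 0.00018). NDN differed by 0.10 and SNRPN by 0.41, neither of which passed.

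In untreated U2OS cells 1 member was called higher in KO cells, against 6.56% of the 20621 genes tested, and 3 lower, against 8.63%. IGF2 differed by -1.13 (SE 0.07, adjusted p = 8.4e-05), PEG10 by -0.85 (SE 0.23, adjusted p = 0.046) and GRB10 by -0.35 (SE 0.08, adjusted p = 0.03), and H19 by 0.40 (SE 0.11, adjusted p = 0.046). IGF2 alone stayed called with the replicate block (1 of 7), or when any 1 of the libraries other than WT replicate 1 was left out. Without replicate 1 of the WT cells all 4 passed, at -1.15, -1.10, -0.41 and 0.51, and then 20.5% of all genes were called higher and 20.6% lower. PEG3 differed by 0.24 with and by -0.01 without that replicate, and passed in neither. NDN differed by -0.18 with and -0.01 without it and SNRPN by 0.05 and -0.07, and neither passed.

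After treatment and recovery 1 of 7 members was called higher in KO AID-DIvA cells, against 12.6% of the 20100 genes tested, and 3 lower, against 11.1%. H19 differed by 0.60 (SE 0.12, adjusted p = 0.0046), IGF2 by -0.88 (SE 0.08, adjusted p = 2.5e-05), PEG10 by -0.64 (SE 0.10, adjusted p = 0.0012) and GRB10 by -0.32 (SE 0.06, adjusted p = 0.0034). PEG3 differed by -0.22 (SE 0.08, adjusted p = 0.066). In treated U2OS cells 2 of 8 members were called higher in KO cells, against 19.0% of the 21800 genes tested, and 3 lower, against 19.0%. IGF2 differed by -0.99 (SE 0.05, adjusted p = 4.3e-15), PEG10 by -0.89 (SE 0.05, adjusted p = 8.7e-14) and GRB10 by -0.36 (SE 0.04, adjusted p = 4.8e-08). PEG3 was higher by 0.25 (SE 0.05, adjusted p = 8.2e-05) and H19 by 0.19 (SE 0.07, adjusted p = 0.041), and both calls were lost with all 4 groups in one fit, that of H19 also with DESeq2, without the filter and without any 1 of 5 of the 6 libraries. MEG3 differed by 0.64 (SE 0.44, adjusted p = 0.26).

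**Figure D5:**
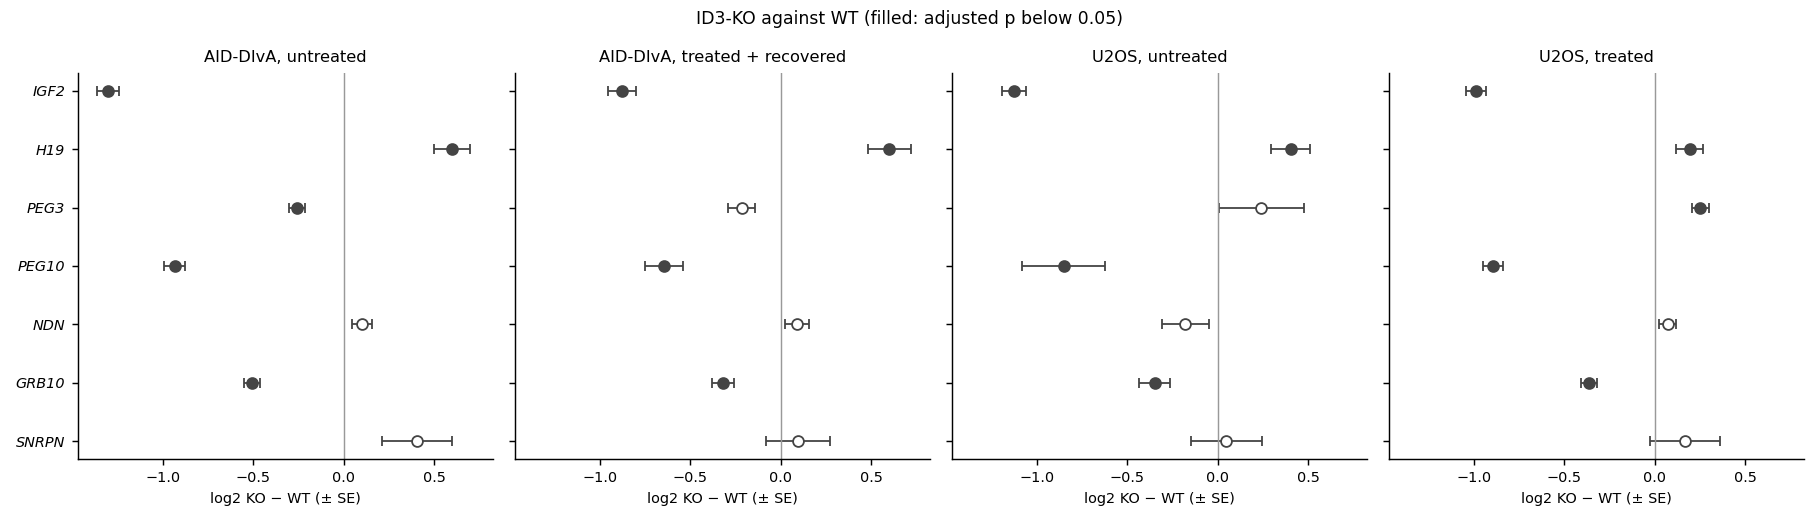
Difference between ID3-KO and WT cells for 7 imprinted genes, in log2 units with an approximate standard error derived from the edgeR F statistic, in untreated and treated cells of each line. Filled points passed an adjusted p of 0.05. IGF2, PEG10 and GRB10 lie left of 0 and H19 right of 0 in all 4 panels.

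Whether KO and WT cells responded differently was tested as an interaction over the 12 libraries of a line. In AID-DIvA cells 0 of 7 members were called, against 0.762% higher and 0.451% lower of the 21265 genes tested. At an unadjusted p below 0.05 there were 3 (IGF2, PEG10 and GRB10), and DESeq2 called 1, IGF2. The shares of all genes at that threshold and with DESeq2 are not given, so these counts are not set against the shares above. The fall of IGF2 was smaller in KO cells by 0.42 on the log2 scale (SE 0.10, adjusted p = 0.054), that of PEG10 by 0.29 (SE 0.12, adjusted p = 0.32), and GRB10 differed by 0.18 (SE 0.07, adjusted p = 0.29). In U2OS cells 0 of 8 members were called by edgeR, against 1.10% higher and 1.06% lower of the 22647 genes tested. There were 0 at an unadjusted p below 0.05 and 0 by DESeq2. The differences were 0.13 (SE 0.09) for IGF2, -0.21 (SE 0.13) for H19, -0.02 (SE 0.09) for GRB10 and -0.05 (SE 0.24) for PEG10. PEG3 differed by 0.00 (SE 0.25), NDN by 0.25 (SE 0.15) and SNRPN by 0.12 (SE 0.27). Without replicate 1 of the untreated WT cells PEG3 was called at 0.26, against 4.46% of all genes higher and 4.56% lower. IGF2 then differed by 0.15, H19 by -0.32, NDN by 0.08 and SNRPN by 0.24, and PEG10 (0.20) and GRB10 (0.05) changed their sign, none of which passed.

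The response after recovery in AID-DIvA cells was also set against that before recovery in U2OS cells, a comparison added after the data were seen. In KO cells 0 of 8 members were called higher and 4 lower (H19, PEG3, PEG10 and GRB10), against 24.8% and 27.7% of the 21947 genes tested. The eighth was MEG3, which had 0 counts in all KO AID-DIvA libraries, so its fitted difference is not usable. DESeq2 called 5, MEG3 included, with no share of all genes beside that count. In WT cells 1 of 7 was called higher (SNRPN) and 5 lower (H19, IGF2, PEG3, PEG10 and GRB10), against 20.5% and 21.7% of the 22238 genes tested. Of the called members PEG10 had the largest difference in both, -0.97 (SE 0.10, adjusted p = 2.8e-07) in KO and -1.30 (SE 0.24, adjusted p = 0.00072) in WT cells, where it was -1.05 without replicate 1 of the untreated WT U2OS cells. In WT cells the call of PEG3 was lost without any 1 of the 6 AID-DIvA libraries but replicate 1 of the treated ones, and without any 1 of the 3 treated U2OS libraries, and that of SNRPN was lost with the replicate block and without any 1 of 6 of the 12 libraries. Recovery, the cell line label and a batch between the sets cannot be told apart.

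Untreated WT AID-DIvA and untreated WT U2OS cells were compared as a background for this. They differ in the label of the line and in any batch that goes with it. Of 7 members 0 were called higher in AID-DIvA cells and 1 lower, against 13.0% and 12.6% of the 20659 genes tested. H19 differed by -0.51 (SE 0.13, adjusted p = 0.028). Without replicate 1 of the U2OS cells 5 members were called, IGF2 higher (0.16) and H19 (-0.40), PEG10 (-0.15), NDN (-0.20) and SNRPN (-0.81) lower, and the shares of all genes were 26.3% and 25.8%. PEG10 thereby changed its sign from 0.09.

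Of 49 further imprinted genes listed, 43 were in the tables, and between 28 and 33 of them were tested in a comparison. Counts of ZIM2, TFPI2, ZNF597 and NNAT lay mostly on the opposite strand, with 10.1%, 5.76%, 16.0% and 0% on their own. ZIM2 is among the genes called higher in WT U2OS cells below, at 0.76, and DESeq2 did not call it there. In WT AID-DIvA cells 6 of the further imprinted genes were called higher and 11 lower of 28 (23.9% and 23.0% of all genes), and in KO AID-DIvA cells 4 and 9 of 29 (20.2% and 19.9%). In WT U2OS cells 8 were called higher and 3 lower of 31 (26.0% and 22.9%), and in KO U2OS cells 10 and 8 of 30 (35.8% and 34.0%). With replicate 1 of untreated WT left out, 11 were called higher and 6 lower of 32 in WT U2OS cells (33.9% and 32.5%). Their median log2 differences were -0.13, -0.07, 0.01 and 0.07, where the medians of all genes tested were -0.00, -0.02, 0.01 and 0.00. RTL1, a retrotransposon-derived gene between DLK1 and MEG8, rose by 1.64 in WT and 1.38 in KO U2OS cells, from 1.78 to 5.52 and from 0.799 to 2.06 CPM. PHLDA2, a growth restrainer of the placenta, rose by 1.13 and 1.35 there, and NAP1L5 by 1.37 and 1.24. GNAS, the stimulatory G protein alpha subunit, fell by 0.70 in WT and 0.50 in KO U2OS cells, PLAGL1, a zinc finger factor, by 0.62 and 0.74, and MKRN3 by 0.29 and 0.38. The call of MKRN3 in WT cells was not made with DESeq2. All 6 passed in WT cells without replicate 1 of untreated WT, RTL1 at 1.46, PHLDA2 at 1.44, NAP1L5 at 1.34, GNAS at -0.63, PLAGL1 at -0.73 and MKRN3 at -0.35.

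After recovery the named genes were partly others. In WT AID-DIvA cells RTL1 rose by 0.82, SLC22A18 by 0.57 and NAP1L5 by 0.52. KCNQ1OT1, the antisense noncoding RNA of its 11p15.5 domain, fell by 0.80, CPA4 by 0.77 and CDKN1C, an inhibitor of cyclin-dependent kinases, by 0.59. In KO AID-DIvA cells PHLDA2 rose by 0.59, IGF2R by 0.55 and SNHG14, the host transcript downstream of SNRPN, by 0.36, while KCNQ1OT1 fell by 0.67, CPA4 by 0.54 and SGCE by 0.53. SGCE starts beside PEG10 and runs the other way. SGCE was lower by 0.44 (SE 0.05) and 0.53 (SE 0.07) after recovery in WT and KO cells, as PEG10 was, and differed by -0.23 (SE 0.10, adjusted p = 0.1) and -0.11 (SE 0.05, adjusted p = 0.048) before it, where PEG10 rose. DESeq2 did not make the call of SGCE in KO U2OS cells, and without replicate 1 of untreated WT SGCE passed in WT U2OS cells at -0.12. In the interaction of AID-DIvA cells 1 of 31 of these genes was called, RTL1 at -1.44 (SE 0.22, adjusted p = 0.0033), named after its value was seen. It went from 2.03 to 3.54 CPM in WT and from 0.776 to 0.490 in KO cells. In U2OS cells 0 of 33 were called, 5 at an unadjusted p below 0.05 and 0 by DESeq2, and 1 (CPA4) without replicate 1 of untreated WT. No share of all genes is given for the unadjusted threshold.

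Between untreated KO and WT cells 9 of 30 further imprinted genes were called higher and 6 lower in AID-DIvA cells (18.6% and 18.1% of all genes), and 3 and 3 of 31 in U2OS cells (6.56% and 8.63%). In U2OS cells 8 and 7 of 33 were called without replicate 1 of WT (20.5% and 20.6%). RTL1 differed by -1.42 and -1.16, and PLAGL1 by -1.28 and -1.02, from 68.7 to 28.7 and from 63.4 to 31.3 CPM. In AID-DIvA cells CPA4 was lower by 0.73 in KO cells, and CDKN1C, GNAS-AS1 and PHLDA2 were higher by 0.69, 0.57 and 0.47. In U2OS cells ZNF331, GNAS-AS1 and INPP5F were higher in KO cells by 0.77, 0.46 and 0.36. When that replicate was left out, RTL1 differed by -1.35, PLAGL1 by -1.13, ZNF331 by 0.70, GNAS-AS1 by 0.56 and INPP5F by 0.27, and all passed. Between treated KO and WT cells 8 of 28 were called higher and 4 lower in AID-DIvA cells (12.6% and 11.1% of all genes), and 7 and 6 of 31 in U2OS cells (19.0% and 19.0%).

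Of 12 genes that write, read or keep the imprint marks, 9 were tested in each treatment comparison. ZFP57 and the germ-line factor DNMT3L stayed below 0.3 CPM in the U2OS groups. In KO U2OS cells 3 of 9 rose and 6 fell, where 35.8% and 34.0% of all genes were called, and in WT U2OS cells 2 rose and 4 fell, against 26.0% and 22.9%. Leaving out replicate 1 of untreated WT, 3 rose and 6 fell of 10 in WT cells, against 33.9% and 32.5%. UHRF1, which brings DNMT1 to replicated DNA, fell by 1.04 in KO and 0.98 in WT cells, and CTCF, the insulator protein that binds between IGF2 and H19 on the unmethylated allele, by 0.83 and 0.86. ZNF445, a zinc finger protein of imprint upkeep, rose by 0.42 and 0.63. CTCFL, the germ-line paralog of CTCF, rose by 2.90 and 1.89, from 0.271 to 2.02 and from 0.345 to 1.27 CPM, the latter value named after it was seen. SETDB1 fell by 0.62 in KO cells and TRIM28 by 0.36 in WT cells. In WT cells without that replicate the values were -0.20 for TRIM28, 0.40 for ZNF445, -1.04 for UHRF1, -0.96 for CTCF and 1.57 for CTCFL, and all passed. After recovery 2 rose and 2 fell in KO (20.2% and 19.9% of all genes) and 0 rose and 3 fell in WT AID-DIvA cells (23.9% and 23.0%). CTCF fell by 0.31 and 0.32, and SMCHD1, a chromatin protein, by 0.44 and 0.23. DNMT1 rose by 0.17 in KO and UHRF1 fell by 0.12 in WT AID-DIvA cells, and DESeq2 made neither call. Before recovery, in KO U2OS cells, SMCHD1 went the other way and rose by 0.18. Between untreated KO and WT cells SMCHD1 alone was called, higher by 0.22 in AID-DIvA KO cells. In U2OS cells 0 of 9 were called by edgeR, 3 at an unadjusted p below 0.05 and 1 by DESeq2, with no share of all genes for the last 2 counts. Without replicate 1 of WT 3 were called higher and 1 lower, against 20.5% and 20.6% of all genes.

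Of 9 genes of the IGF2 axis, the receptors and binding proteins around this ligand, 3 rose and 4 fell of 8 tested in WT (23.9% and 23.0% of all genes) and 4 rose and 2 fell of 8 in KO AID-DIvA cells (20.2% and 19.9%). DESeq2 called 5 in place of 7 in WT, a count without a share of all genes. In U2OS cells 3 rose and 2 fell of 7 in WT (26.0% and 22.9%) and 4 rose and 2 fell of 8 in KO cells (35.8% and 34.0%). When replicate 1 of untreated WT was dropped, 4 rose and 2 fell of 7 in WT U2OS cells, against 33.9% and 32.5%. IGF2BP3, an RNA-binding protein named for IGF2 mRNA, rose in each of the 4, by 0.98 in WT and 0.75 in KO AID-DIvA cells and by 1.41 and 1.34 in U2OS cells. IGF2R, the receptor that clears IGF2, rose in all 4 as well, by 0.45, 0.55, 0.64 and 0.46 in the same order. The value of 0.64 became 0.40 without replicate 1 of untreated WT, and still passed. IGF1R, the signalling receptor, rose by 0.85 and 0.42 after recovery and fell by 0.37 in KO U2OS cells. INSR rose by 0.65 and 0.80 in WT and KO U2OS cells. IGFBP5, a secreted IGF-binding protein, fell by 1.54 and 1.18 after recovery and by 0.68 in WT U2OS cells. Without that replicate the WT U2OS values were 1.29 for IGF2BP3, 0.50 for INSR and -0.85 for IGFBP5, and all passed. In untreated KO against WT cells 4 of 8 were called in AID-DIvA and 3 of 8 in U2OS cells, all of them lower, where 18.1% and 8.63% of all genes were. After dropping replicate 1 of WT, 1 was called higher and 5 lower in U2OS cells, against 20.5% and 20.6%. IGFBP5 differed by -0.73 and -2.19, IGF2BP1 by -0.90 and -0.78 and IGF2BP3 by -0.44 and -0.71. The U2OS values without that replicate were -2.36, -0.90 and -0.82, and all passed.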

How the data were processed

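RNA-seq was made by the authors from total RNA with a stranded kit and paired 100 bp reads, aligned with STAR (hg19/GRCh37, Roddy workflow) and counted with featureCounts. Versions and multi-mapping settings are not given in the sources used here, and the gene identifiers carry versions of another form than the named annotation v.29 lift 37. The counts per gene were used as the authors deposited them, raw and per library, from either strand, with the counts by strand as a check. The FPKM and TPM columns were not used. Library totals (37878751 to 76906266) leave counting error small except for genes with few counts.

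Counts were analysed with edgeR 4.0.16 in R 4.3.3 (TMM, filterByExpr, robust quasi-likelihood fit, Benjamini-Hochberg adjustment over all genes tested), called at an adjusted p below 0.05, and the scripts were tested on simulated data. Each comparison of 2 groups used its own 6 libraries, and each interaction 12. SE is an approximate standard error derived from the edgeR F statistic. Ratios of few counts have exact binomial 95% intervals, and floors are 3 counts over a group. Replicates are biological per the methods, and no pair of them agreed within counting error. Further genes were named by rule: up to 3 per list and direction, the largest changes among called genes with a mean of at least 1 CPM and no overlap between groups. The members and lists were chosen with earlier results of these data known.

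Alternatives were DESeq2 1.42.0, edgeR run with the DESeq2 size factors, all genes kept without a filter, a log2 difference beyond 1, counts of the gene's strand, the replicate number as a block, all 4 groups in one fit and each library left out in turn. Shares of all genes belong to edgeR calls at an adjusted p below 0.05. They are given with all libraries and without replicate 1 of the untreated WT U2OS cells, not for the other alternatives or an unadjusted p. The comparison of responses after and before recovery and the values without replicate 1 of the untreated WT U2OS cells were added after seeing the data. IPW, PWAR1, PWAR5, MESTIT1, HYMAI and MCTS2P were not matched by symbol and were not analysed here.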

Additional observations from a re-analysis of the deposited data

Results flagged for a closer look

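The response to mocetinostat differed between AID-DIvA cells after recovery and U2OS cells before recovery by the edgeR quasi-likelihood test for several members, given as the AID-DIvA response minus the U2OS response on the log2 scale with Benjamini-Hochberg adjusted p. Such differences were common, called higher in 24.8% and lower in 27.7% of all genes tested in KO cells and in 20.5% and 21.7% in WT cells. In KO cells H19 differed by -0.45 (adjusted p = 0.0055), PEG3 by -0.71 (adjusted p = 3.5e-07), PEG10 by -0.97 (adjusted p = 2.8e-07) and GRB10 by -0.59 (adjusted p = 2.2e-06). In WT cells H19 differed by -0.65 (adjusted p = 0.0079), IGF2 by -0.43 (adjusted p = 0.0019), PEG3 by -0.73 (adjusted p = 0.03), PEG10 by -1.30 (adjusted p = 0.00072) and GRB10 by -0.78 (adjusted p = 1.1e-05). SNRPN differed by 0.88 in WT cells (adjusted p = 0.031). Without replicate 1 of the untreated WT U2OS cells all 6 WT differences passed as well, at -0.76, -0.41, -0.48, -1.05, -0.72 and 0.99, where 26.0% of all genes were called in each direction. The stage of collection, the cell line label and any batch between the sets coincide, so which of them goes with these differences cannot be told apart.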

How the results depend on the processing

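Of 95 member results 47 passed the threshold, and none of their 612 alternative values changed sign, while 79 no longer passed. The 47 were picked for passing, and the alternatives refit largely the same libraries, so a change of sign was unlikely from the start. Unchanged signs therefore say little of stability. The 47 pool overlapping comparisons, have no share of all genes beside them and include MEG3 in KO U2OS cells, which had to differ. With a log2 difference beyond 1 required, the count of members called was 0 in both AID-DIvA treatment comparisons, in WT U2OS cells, in both treated genotype comparisons, between the untreated WT lines and for the KO difference between responses, and 1 in both untreated genotype comparisons (IGF2) and for the WT difference between responses (PEG10). It was also 1 in KO U2OS cells, where the 1 is MEG3, which passed the filter only through its treated libraries and so says nothing of stability. No share of all genes is given at this threshold or under the alternatives that follow, so these counts show only how the calls moved. In KO AID-DIvA cells the count of 4 became 2 with DESeq2, without the filter and with the replicate block, and 1 to 3 when a library was left out (1 without replicate 1 or 2 of the untreated cells). In untreated U2OS genotypes it became 1 with the replicate block and 1 to 4 when a library was left out. The interaction in AID-DIvA cells went from 0 to 1, IGF2, with DESeq2, with its size factors and without the filter, and lay between 0 and 1 over libraries left out (1 without replicate 2 of recovered WT or of untreated KO cells). That in U2OS cells lay between 0 and 1 (1 without replicate 1 of untreated WT). Treated U2OS genotypes gave 3 with all 4 groups in one fit. Between the untreated WT lines DESeq2 gave 2, and libraries left out gave 0 to 5: 0 without any 1 AID-DIvA library or replicate 3 of U2OS, 5 without replicate 1 of U2OS.

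In none of the 8 comparisons of 2 groups with shared numbers were all same-numbered correlations above 0.1. They ran from -0.425 to 0.306 in KO AID-DIvA treatment and from 0.0414 to 0.120 in KO U2OS treatment. Between treated AID-DIvA genotypes they ran from -0.350 to -0.119. Values for differently numbered libraries are not given, so whether the replicate numbers pair the libraries was not tested. The sign changed in 17 results, all of them not called and of at most 0.24. For H19 in KO AID-DIvA cells the difference became 0.0088 with DESeq2, 0.011 with its size factors, 0.0041 without the filter and 0.0019 with the replicate block (-0.064 to 0.087 over libraries left out), and its interaction in AID-DIvA cells 0.0052, 0.0047, 0.016 and 0.0011 in the same order and 0.0023 with counts of the gene's strand (-0.12 to 0.088). The AID-DIvA interaction of NDN became 0.0022 without the filter (-0.067 to 0.029), and the U2OS interaction of PEG3 -0.0064 with counts of the gene's strand and -0.031 with the replicate block (-0.17 to 0.26). Leaving out a library gave ranges across 0 for H19 (-0.073 to 0.13) and GRB10 (-0.020 to 0.0049) in WT AID-DIvA treatment, NDN (-0.024 to 0.067) and SNRPN (-0.050 to 0.099) in KO and SNRPN (-0.26 to 0.063) in WT U2OS treatment, PEG3 (-0.014 to 0.42) and SNRPN (-0.071 to 0.20) in untreated U2OS genotypes, the AID-DIvA interaction of PEG3 (-0.0036 to 0.11), the U2OS interactions of PEG10 (-0.19 to 0.20), GRB10 (-0.078 to 0.046) and SNRPN (-0.039 to 0.29), PEG10 between the WT lines (-0.15 to 0.25) and the WT difference between responses of NDN (-0.0083 to 0.26). The cause of these changes was not tested.

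Counts of the further imprinted genes also moved, and they too have no share of all genes beside them. Requiring a log2 difference beyond 1 left 0 of 17 and 0 of 13 in WT and KO AID-DIvA treatment, 5 of 11 and 6 of 18 in U2OS treatment, 2 of 15 and 3 of 6 in untreated and 2 of 12 and 3 of 13 in treated genotypes, 1 of 7 between the lines and 5 of 16 and 3 of 13 in the differences between responses. The replicate block gave 3 and 7 in untreated U2OS and treated AID-DIvA genotypes, one fit 7 in treated U2OS genotypes, and no filter 2 in place of 1 in the AID-DIvA interaction. Genes with few counts, MEG3, DLK1 and MEST above all, are limited by depth.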
